A study of Mus musculus with 12 samples.

Results

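The ATF4 and CHOP stress response was followed through 33 genes picked by symbol, out of 55401 genes in the table of counts: 8 transcription factors, 6 feedback regulators, 5 effectors, 2 kinases that phosphorylate eIF2alpha, 11 enzymes of amino acid synthesis and the tRNA exporter Xpot. Each symbol matched the table. Ddit3 matched 2 identifiers, of which the second had 0 counts in all 12 libraries and was left out. RNA had been sequenced from mouse Th17 cells, a helper T cell type named for its cytokine IL-17, grown from naive T cells of wild-type lymph nodes in RPMI with fetal bovine serum. The cells received Kira8, Stattic, Kira8 together with Stattic (Kira8+Stattic), or no inhibitor (None), with 3 libraries per group and 4 h of exposure to the inhibitors. Kira8 inhibits IRE1alpha, a sensor of unfolded protein in the endoplasmic reticulum, and Stattic inhibits STAT3. The labels give no strain, sex, age, dose or number of pooled animals, and do not say whether None received solvent or whether libraries of a group came from separate cultures. The p-values thus rest on a between-library spread that may be technical only.

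As background, ATF4 protein accumulates when a kinase such as PERK (Eif2ak3), GCN2 (Eif2ak4), HRI (Eif2ak1) or PKR (Eif2ak2) phosphorylates the initiation factor eIF2alpha, which slows most translation but favours that of Atf4 mRNA. ATF4 pairs with C/EBP proteins on C/EBP-ATF response elements, and is known to induce genes of amino acid synthesis and import together with CHOP (Ddit3), a factor linked to cell death under prolonged stress. Feedback follows through Ppp1r15a, which directs a phosphatase to eIF2alpha, and Trib3, a pseudokinase that binds ATF4 and CHOP. In activated T cells ATF4 is known for sustaining amino acid metabolism.

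The response element is the sequence that ATF4 is known to bind, so its occurrence in the promoters of these genes is shown first. Its core was searched as TGATGNAA on both strands, which reads TTNCATCA on the other strand, in RefSeq promoters of build GRCm38.p6 that run from 250 bases before to 50 bases after each gene's start. It occurred in 9 of the 29 listed genes with a promoter in the table (31.0%), against 1219 of 27025 genes in all (4.51%), and the other 20 did not hold it in this window. The 9 were Asns, Atf3, Chac1, Got1, Jdp2, Nupr1, Pycr1, Trib3 and Vldlr. Ppp1r15b, Eif4ebp1, Tnfrsf10b and Cth had no entry. The cyclic AMP response element TGACGTCA, which is its own reverse complement and overlaps no match of the first motif here, occurred in Ppp1r15a alone, against 2.03% of all genes. These matches are letters in a window and were not measured as binding sites. Of the sequences below, written 5′ to 3′ along the gene's strand with the matched core in capitals, Chac1 and Trib3 belong to genes called higher with every inhibitor treatment, and Asns and Pycr1 to enzyme genes called in no comparison against None.
Chac1 promoter, chr2:119350992-119351291, strand +: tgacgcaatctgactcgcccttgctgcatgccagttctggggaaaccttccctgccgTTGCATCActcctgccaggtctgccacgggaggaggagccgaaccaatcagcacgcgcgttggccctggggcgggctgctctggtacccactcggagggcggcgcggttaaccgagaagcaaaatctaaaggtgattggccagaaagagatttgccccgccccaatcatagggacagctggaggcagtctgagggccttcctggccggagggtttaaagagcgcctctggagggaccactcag
Trib3 promoter, chr2:152344011-152344310, strand -: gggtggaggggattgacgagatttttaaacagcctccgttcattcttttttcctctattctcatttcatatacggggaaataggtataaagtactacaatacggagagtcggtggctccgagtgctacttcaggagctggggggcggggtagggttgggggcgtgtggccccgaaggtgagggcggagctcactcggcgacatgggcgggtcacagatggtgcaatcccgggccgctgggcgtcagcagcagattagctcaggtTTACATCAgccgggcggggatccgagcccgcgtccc
Asns promoter, chr6:7693160-7693459, strand -: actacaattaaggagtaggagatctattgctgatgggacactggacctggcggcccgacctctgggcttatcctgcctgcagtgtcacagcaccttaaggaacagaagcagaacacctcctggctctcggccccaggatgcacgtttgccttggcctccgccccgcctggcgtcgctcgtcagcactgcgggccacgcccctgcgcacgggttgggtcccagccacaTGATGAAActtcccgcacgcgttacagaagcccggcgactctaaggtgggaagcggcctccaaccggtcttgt
Pycr1 promoter, chr11:120643699-120643998, strand -: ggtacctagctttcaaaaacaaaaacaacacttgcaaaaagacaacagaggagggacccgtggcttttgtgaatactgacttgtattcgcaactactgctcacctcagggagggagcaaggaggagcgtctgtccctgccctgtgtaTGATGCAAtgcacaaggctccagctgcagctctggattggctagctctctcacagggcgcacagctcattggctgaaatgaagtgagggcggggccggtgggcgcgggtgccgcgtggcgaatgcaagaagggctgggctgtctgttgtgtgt

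The first base of the core lay 193 bases before the start in Chac1, at base 15 of the transcript in Trib3, 23 bases before the start in Asns and 103 bases before it in Pycr1. Shorter windows of 60 bases show the core in the other 5 genes, where it lay 110 bases before the start in Atf3 and Nupr1, 33 in Jdp2, 200 in Vldlr and 102 in Got1. They complete the listed genes with the core. Of these 5 genes, 4 (Atf3, Jdp2, Vldlr and Got1) were called higher in Stattic and Kira8+Stattic cells, and Nupr1 in Kira8 cells. Of all genes tested, 20.1% were called higher with Stattic, 20.8% with both and 9.70% with Kira8. Listed genes without the core in this window, such as Ddit3, Ppp1r15a and Sesn2, also rose with Stattic and with both. Whether the core goes with the calls was not tested.
Atf3 motif window, chr1:191183410-191183469, strand -: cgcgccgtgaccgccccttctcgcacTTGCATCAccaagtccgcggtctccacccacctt
Nupr1 motif window, chr7:126625547-126625606, strand -: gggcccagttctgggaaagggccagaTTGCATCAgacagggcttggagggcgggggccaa
Jdp2 motif window, chr12:85599357-85599416, strand +: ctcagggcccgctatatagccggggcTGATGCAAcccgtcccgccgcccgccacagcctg
Vldlr motif window, chr19:27216794-27216853, strand +: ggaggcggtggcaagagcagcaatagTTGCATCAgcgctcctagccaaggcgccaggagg
Got1 motif window, chr19:43524674-43524733, strand -: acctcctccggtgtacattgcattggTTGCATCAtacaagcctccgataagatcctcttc

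In 2 of the 12 libraries, Kira8 replicate 2 and Stattic replicate 2, overall composition and depth were unlike those of the other 10. They held 19813462 and 9275672 counts, against 51669791 to 85890966 in the other 10. Mitochondrial transcripts took 61.55% and 10.66% of their counts, against 3.38% to 5.22%, and the repeat-derived gene model Gm10800 took 2.911% and 19.104%, against at most 0.008%. As CPM of the total counts, 32 of the 33 genes in Kira8 replicate 2 and 25 of 33 in Stattic replicate 2 lay below the lowest None library, and 4 and 8 of them had a count of 0. The values below come from the 10 libraries, so Kira8 and Stattic have 2 libraries each, and the same results with these 2 libraries follow at the end. The Th17 label was checked against its markers, in counts-per-million (CPM) of the total counts. Over the 10 libraries Cd4 had 356 to 449 CPM and the cytokine gene Il17a 130 to 1439 CPM. The CPM of the 33 genes below are TMM-scaled unless stated otherwise.

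Of the 14 genes of the factor and feedback classes, 9 rose with Kira8 and 12 with Stattic and with both inhibitors, while 1, 3 and 4 of the 11 amino acid synthesis genes rose in the same comparisons. Of the 33 genes, 11 rose and 4 fell in Kira8 against None, 17 rose and 4 fell in Stattic against None, and 19 rose and 4 fell in Kira8+Stattic against None, by edgeR's quasi-likelihood test with Benjamini-Hochberg adjustment across the 21239 genes tested and a threshold of 0.05. All 33 passed the filter on low counts. Among all genes tested, 9.70% were called higher and 9.59% lower in Kira8 against None. In Stattic against None these shares were 20.1% and 18.9%, and in Kira8+Stattic against None 20.8% and 20.0%. The share of the 33 genes that rose was 33.3% with Kira8, 51.5% with Stattic and 57.6% with both, above these backgrounds. The share that fell, 12.1% in each, was near the background with Kira8 and below it in the other 2 comparisons. Since the genes were chosen with earlier results of these data known, the excess of rises may be partly set by that choice. It was not tested. The Kira8 counts rested on single libraries: without Kira8 replicate 3 they were 6 higher and 2 lower, and without Kira8 replicate 1 they were 11 higher and 1 lower. The 4 falls in Stattic became 2 without Stattic replicate 1. In these bulk libraries, fewer cells of a type and less RNA per cell cannot be told apart.

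The 14 factor and feedback genes combined had no fall in the 3 comparisons, with a median log2 change of 0.87 with Kira8, 1.71 with Stattic and 2.21 with both. Their 9 Kira8 rises became 5 without Kira8 replicate 3, and their 12 rises with Stattic and with both remained 12 in each of the 10 omissions of a single library. The 11 amino acid synthesis genes gave 1 rise and 4 falls with Kira8 (median -0.48), 3 rises and 2 falls with Stattic (median 0.17), and 4 rises and 1 fall with both (median 0.10). With Kira8 these became 1 rise and 1 fall without Kira8 replicate 1, and 0 rises and 2 falls without Kira8 replicate 3. With Stattic the 2 falls became 1 without None replicate 2, Stattic replicate 1 or Stattic replicate 3, and the omissions left 2 or 3 rises. With both, the counts became 2 rises and 2 falls without None replicate 3 or Kira8+Stattic replicate 3, and 4 rises and 2 falls without None replicate 1. The median over all genes tested was 0.00, 0.08 and 0.09 in these 3 comparisons. Of all genes tested, 9.70% rose and 9.59% fell with Kira8, 20.1% and 18.9% with Stattic, and 20.8% and 20.0% with both. Among the 11 amino acid synthesis genes, the share that rose with Kira8 and the shares that rose and fell with Stattic were near these.

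Markers of other cell types moved with the same comparisons. Marker sums are given in CPM of the total counts. The 5 B cell markers summed to 31.8 to 39.3 CPM in Kira8, 12.3 to 20.3 CPM in Stattic and 13.9 to 30.6 CPM in Kira8+Stattic libraries, against 110 to 132 CPM in None libraries, and 4, 5 and 4 of the 5 fell. The 7 markers of CD8 T and NK cells summed to 166 to 182 CPM in Kira8, 498 to 595 CPM in Stattic and 172 to 307 CPM in Kira8+Stattic libraries, against 1137 to 1962 CPM in None libraries, and 6, 4 and 5 of the 6 tested fell. Ncr1, an NK cell receptor, was at 0 in 9 of the 10 libraries. Gzmb alone made up most of the sum in None libraries, at 778 to 1412 CPM. Cd8b1 and Klrd1 were not called with Stattic. Myeloid markers summed to 62.1 to 65.4 CPM in Kira8, 36.6 to 45.9 CPM in Stattic and 27.7 to 98.9 CPM in Kira8+Stattic libraries, against 31.7 to 46.2 CPM in None libraries, and 0, 2 and 2 of 6 rose. Th17 markers summed to 972 to 1059 CPM in Kira8, 909 to 1036 CPM in Stattic and 893 to 1023 CPM in Kira8+Stattic libraries, against 1321 to 3297 CPM in None libraries, and 3, 5 and 5 of 7 fell. Cd4 and Il23r were called in none of these comparisons. The part of these shifts in the results below was not tested.

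**Figure D1:**
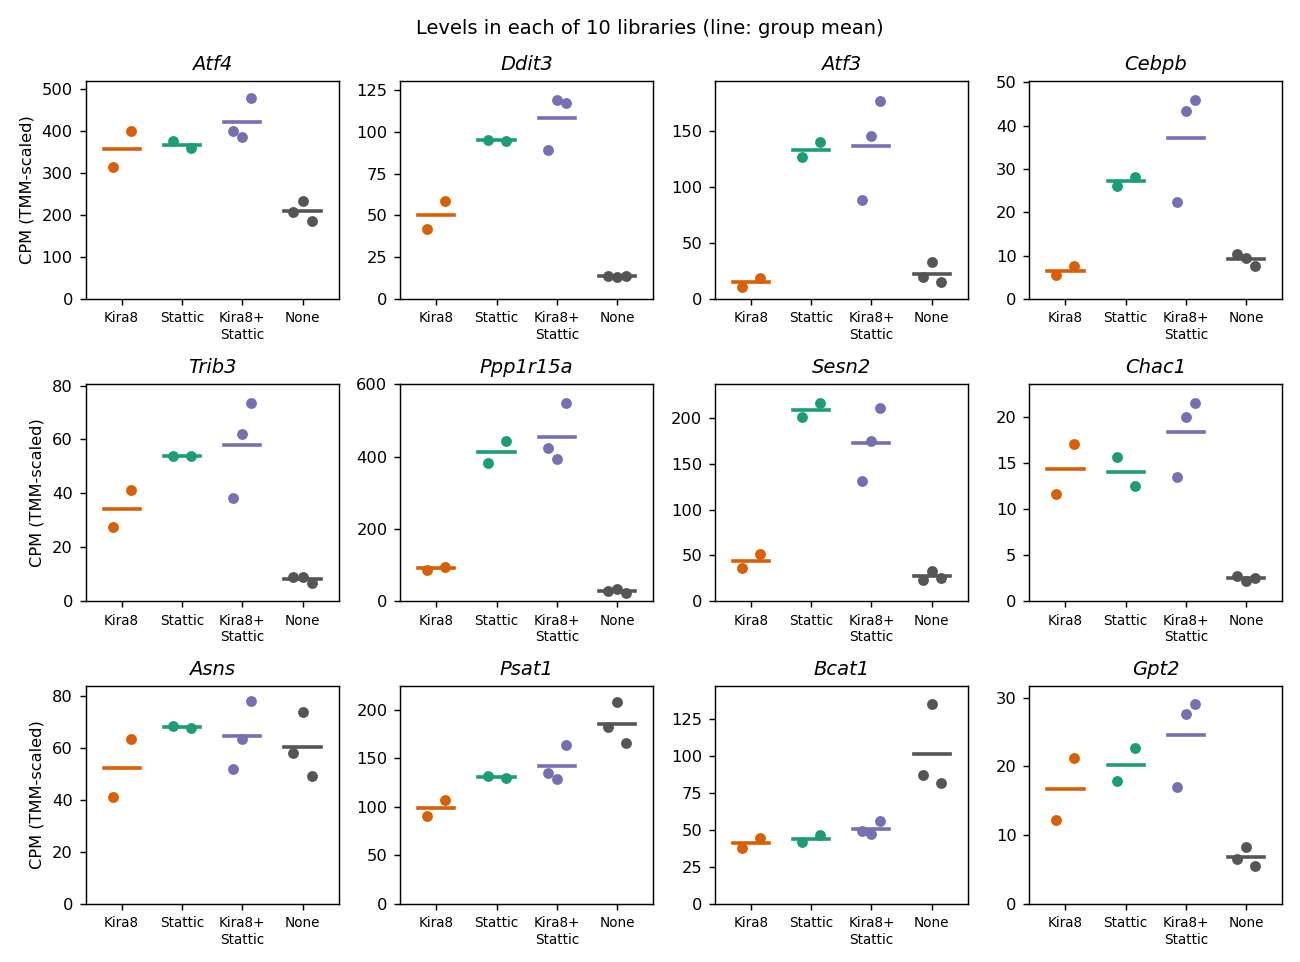
Levels of 12 of the genes in TMM-scaled CPM (y axis from 0) in each of 10 libraries, by group (x axis), with a line at the group mean. Ddit3, Trib3, Ppp1r15a and Chac1 lie above None in all 3 treated groups, Atf3, Cebpb and Sesn2 have their highest groups in Stattic and Kira8+Stattic, Asns overlaps None, and Psat1 and Bcat1 lie below None, all treated libraries of both being under the lowest None library.

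Among the transcription factors, the mRNA of Atf4 itself had 316 and 399.7 CPM in Kira8, 377 and 361 CPM in Stattic and 401, 387 and 481 CPM in Kira8+Stattic libraries, against 208, 233 and 186 CPM in None libraries. All 7 treated libraries lay above all 3 None libraries, and the treated groups overlapped in part. Atf4 rose by a log2 change of 0.78 ± 0.17, adjusted p = 0.00734, with Kira8, 0.82 ± 0.17, adjusted p = 0.00243, with Stattic, and 1.02 ± 0.15, adjusted p = 0.000264, with both. The Kira8 call rested on Kira8 replicate 3, without which the adjusted p was 0.133.

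CHOP, encoded by Ddit3, changed more than Atf4. Ddit3 had 42.0 and 58.5 CPM in Kira8, 95.2 and 94.5 CPM in Stattic and 89.1, 119 and 118 CPM in Kira8+Stattic libraries, against 13.9, 12.8 and 13.8 CPM in None libraries. The None libraries were close together, both Kira8 libraries stood above them, and the Stattic and Kira8+Stattic libraries stood higher again without overlapping Kira8. The log2 changes against None were 1.90 ± 0.18, adjusted p = 7.61e-05, with Kira8, 2.81 ± 0.18, adjusted p = 1.35e-06, with Stattic, and 3.01 ± 0.17, adjusted p = 4.17e-07, with both. Ddit3 shares 68 exonic bases with Mars and 13 with Gm4189 on the other strand, and reads over such shared bases cannot be assigned while the strand setting of the counting is unknown.

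Atf3 and Cebpb, which encode partners and targets of ATF4 in the stress response, did not share the Kira8 rise. Atf3 had 10.6 and 18.7 CPM in Kira8, 127 and 139.5 CPM in Stattic and 87.9, 145 and 177 CPM in Kira8+Stattic libraries, against 19.1, 32.8 and 14.6 CPM in None libraries. The Stattic and Kira8+Stattic libraries lay above every None and Kira8 library, while Kira8 and None overlapped. Atf3 rose with Stattic (log2 change 2.59 ± 0.35, adjusted p = 0.000150) and with both inhibitors (2.62 ± 0.33, adjusted p = 7.11e-05), and was not called with Kira8 (-0.60 ± 0.36, adjusted p = 0.286). Cebpb had 5.42 to 7.55 CPM in Kira8, 26.1 to 28.2 CPM in Stattic and 22.3 to 45.9 CPM in Kira8+Stattic libraries, against 7.68 to 10.3 CPM in None libraries, with log2 changes of 1.57 ± 0.28 with Stattic and 2.02 ± 0.26 with both, both called, and -0.50 ± 0.29, adjusted p = 0.264, with Kira8, which was not. Cebpb shares 312 exonic bases with Tmem189 on the other strand.

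Cebpg and Jdp2 rose in all 3 comparisons against None. Cebpg, whose product pairs with ATF4 on the response element, had 86.6 and 107 CPM in Kira8, 119 and 151 CPM in Stattic and 123, 152 and 174 CPM in Kira8+Stattic libraries, against 45.2, 60.6 and 61.1 CPM in None libraries. All treated libraries lay above None, and its log2 changes were 0.80 ± 0.20, 1.28 ± 0.20 and 1.43 ± 0.18 with Kira8, Stattic and both, the first losing its call without Kira8 replicate 3 (adjusted p = 0.173). Jdp2, which encodes a repressor of the AP-1 family, had 7.93 and 12.2 CPM in Kira8, 5.43 and 7.94 CPM in Stattic and 7.25, 11.2 and 12.3 CPM in Kira8+Stattic libraries, against 2.45, 1.09 and 2.24 CPM in None libraries. The groups did not overlap None, and Jdp2 rose by 2.38 ± 0.36 with Kira8, 1.79 ± 0.36 with Stattic and 2.41 ± 0.34 with both.

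Atf5 and Nupr1 were the only 2 of the 8 factors called with Kira8 and not with the other treatments. Atf5, a factor whose exons overlap those of Nup62 and Il4i1 by 82 bases and that is translated under eIF2alpha phosphorylation in the manner of Atf4, had 24.4 to 37.1 CPM in Kira8, 16.7 to 18.9 CPM in Stattic and 17.1 to 19.6 CPM in Kira8+Stattic libraries, against 14.4 to 19.3 CPM in None libraries, and its Kira8 change was 0.93 ± 0.21, adjusted p = 0.00848 (0.183 without Kira8 replicate 3). It differed between treatments by -0.79 ± 0.23, adjusted p = 0.0250, for Stattic against Kira8, which missed the threshold without Kira8 replicate 3 (0.283), Stattic replicate 1 (0.0604) or Stattic replicate 3 (0.125). Nupr1, a small stress-induced chromatin protein, stayed at low levels of 2.44 to 4.39 CPM in Kira8, 0.899 to 1.04 CPM in Stattic and 1.43 to 1.70 CPM in Kira8+Stattic libraries, against 0.862 to 1.87 CPM in None libraries. Its Kira8 change of 1.41 ± 0.41, adjusted p = 0.0320, was lost without None replicate 2 (0.0809), None replicate 3 (0.0854) or Kira8 replicate 3 (0.364), and Stattic against Kira8 gave -1.81 ± 0.48, adjusted p = 0.0143, lost without Kira8 replicate 3 (0.151), Stattic replicate 1 (0.0801) or Stattic replicate 3 (0.0584).

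**Figure D2:**
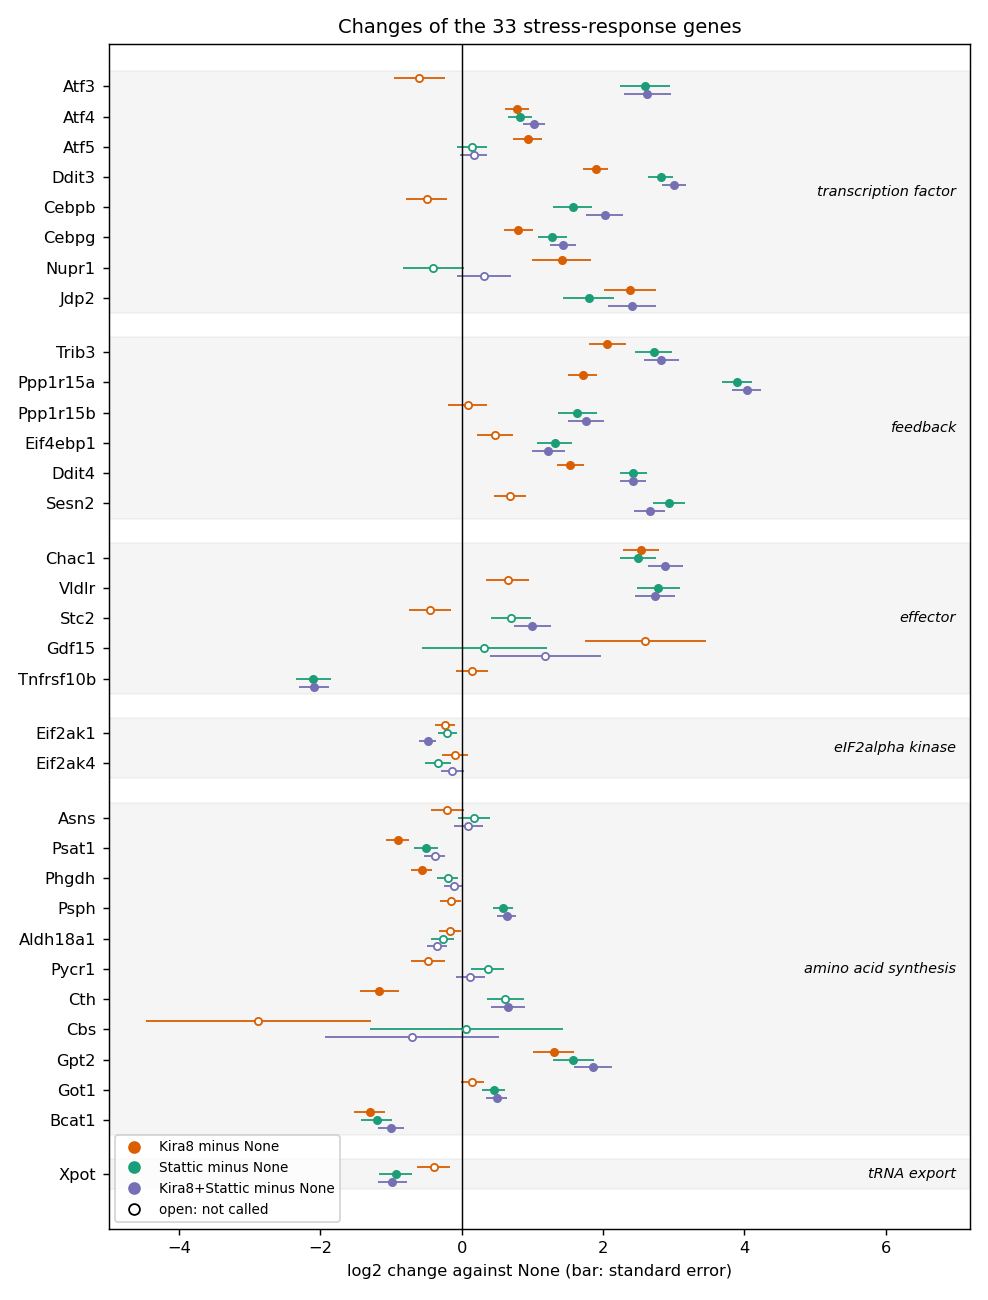
Log2 change of each of the 33 genes (rows, by class) against None, with its standard error, for Kira8, Stattic and Kira8+Stattic. Filled points are called at an adjusted p under 0.05 and open points are not. Rises lie mainly in the factor and feedback rows, up to 4.03 for Ppp1r15a with both inhibitors, while the amino acid synthesis rows lie on both sides of 0.

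Of the 6 feedback genes, 3 rose with Kira8 and all 6 rose with Stattic and with both. Ppp1r15a (GADD34), the regulatory subunit that brings protein phosphatase 1 to eIF2alpha, had 85.7 and 95.9 CPM in Kira8, 383 and 443 CPM in Stattic and 425, 392 and 547 CPM in Kira8+Stattic libraries, against 27.9, 33.1 and 22.2 CPM in None libraries. Stattic and Kira8+Stattic, which overlapped each other, lay above Kira8, and Kira8 lay above None. The log2 changes of Ppp1r15a were 1.71 ± 0.20, adjusted p = 0.000215, with Kira8, 3.89 ± 0.21, adjusted p = 5.18e-07, with Stattic, and 4.03 ± 0.20, adjusted p = 2.15e-07, with both. Its relative Ppp1r15b, which encodes the subunit made without stress, had 213 to 237 CPM in Kira8, 476 to 840.1 CPM in Stattic and 532 to 893 CPM in Kira8+Stattic libraries, against 155 to 243 CPM in None libraries. It was not called with Kira8 (0.08 ± 0.28) and rose with Stattic (1.63 ± 0.28) and with both (1.76 ± 0.26). Ppp1r15b shares 640 exonic bases with the gene model Gm26616 on the other strand.

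Trib3, whose pseudokinase product restrains ATF4 and CHOP, had 27.5 and 41.2 CPM in Kira8, 53.8 and 54.0 CPM in Stattic and 38.5, 62.0 and 73.6 CPM in Kira8+Stattic libraries, against 9.02, 8.82 and 6.79 CPM in None libraries. Every treated library was above None, and Kira8+Stattic replicate 1 lay within the range of the Kira8 libraries. Its log2 changes were 2.06 ± 0.26, adjusted p = 0.000330, with Kira8, 2.71 ± 0.26, adjusted p = 1.41e-05, with Stattic, and 2.82 ± 0.25, adjusted p = 4.95e-06, with both. Ddit4 (REDD1), an inhibitor of mTORC1, had 112 and 161 CPM in Kira8, 247 and 259 CPM in Stattic and 219, 239 and 303 CPM in Kira8+Stattic libraries, against 48.9, 41.4 and 50.8 CPM in None libraries. No group overlapped None, and Ddit4 rose by 1.54 ± 0.19, 2.43 ± 0.20 and 2.43 ± 0.18 with Kira8, Stattic and both.

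Sesn2, another inhibitor of mTORC1 that senses leucine, had 35.8 and 51.6 CPM in Kira8, 201 and 216 CPM in Stattic and 131, 174 and 211 CPM in Kira8+Stattic libraries, against 23.4, 32.7 and 25.8 CPM in None libraries. Both Kira8 libraries were above the highest None library, replicate 1 only just, and the Stattic and Kira8+Stattic libraries were far above both groups. Sesn2 rose with Stattic (log2 change 2.93 ± 0.23, adjusted p = 4.12e-06) and with both (2.66 ± 0.22, adjusted p = 2.92e-06), and with Kira8 it missed the threshold (0.68 ± 0.22, adjusted p = 0.0538). Eif4ebp1 (4E-BP1), a translation repressor, had 18.0 to 31.9 CPM in Kira8, 41.4 to 48.1 CPM in Stattic and 40.3 to 44.8 CPM in Kira8+Stattic libraries, against 14.2 to 23.4 CPM in None libraries. It rose with Stattic (1.31 ± 0.25) and with both (1.23 ± 0.23) and was not called with Kira8 (0.47 ± 0.25).

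The effector class was mixed, with 1 of 5 genes called higher with Kira8, 2 higher and 1 lower with Stattic, and 3 higher and 1 lower with both. The share called lower was near that of all genes, 18.9% with Stattic and 20.0% with both. Chac1, which degrades glutathione, had 11.7 and 17.1 CPM in Kira8, 15.6 and 12.5 CPM in Stattic and 13.4, 20.0 and 21.5 CPM in Kira8+Stattic libraries, against 2.71, 2.22 and 2.53 CPM in None libraries. Every treated library lay above None and the treated groups overlapped one another. Chac1 rose by 2.53 ± 0.25, adjusted p = 0.000100, with Kira8, 2.50 ± 0.25, adjusted p = 2.00e-05, with Stattic, and 2.88 ± 0.24, adjusted p = 3.60e-06, with both. Vldlr, a lipoprotein receptor, had 2.39 and 1.45 CPM in Kira8, 7.82 and 9.08 CPM in Stattic and 7.92, 9.01 and 7.64 CPM in Kira8+Stattic libraries, against 0.993, 1.62 and 1.07 CPM in None libraries. It stood at low levels in Kira8 and None, which overlapped (0.65 ± 0.30, adjusted p = 0.166), and rose with Stattic (2.78 ± 0.30) and with both (2.74 ± 0.29).

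Tnfrsf10b, the death receptor for TRAIL that CHOP is known to induce in human cells, went the other way. It had 27.6 and 34.3 CPM in Kira8, 6.57 and 6.50 CPM in Stattic and 8.09, 6.31 and 5.37 CPM in Kira8+Stattic libraries, against 21.1, 31.5 and 31.4 CPM in None libraries. Stattic and Kira8+Stattic libraries lay below every Kira8 and None library, and Kira8 and None overlapped. Tnfrsf10b fell with Stattic (log2 change -2.10 ± 0.25, adjusted p = 6.10e-05) and with both (-2.09 ± 0.21, adjusted p = 1.54e-05), and gave 0.14 ± 0.23, adjusted p = 0.727, with Kira8. Stc2, a secreted glycoprotein, had 3.48 to 6.38 CPM in Kira8, 9.58 to 12.2 CPM in Stattic and up to 15.0 CPM in Kira8+Stattic libraries, against 4.94 to 8.14 CPM in None libraries, and was called with both inhibitors alone among the comparisons with None (1.00 ± 0.26, adjusted p = 0.00899). Gdf15, a secreted stress cytokine, was near the limit of detection with 1.06 and 0.467 CPM in Kira8, 0.195 and 0.116 CPM in Stattic and 0.230, 0.115 and 0.504 CPM in Kira8+Stattic libraries, against 0.144, 0.108 and 0.121 CPM in None libraries, where 3 counts correspond to 0.0349 to 0.0581 CPM. Both Kira8 libraries were above None, and the change of 2.60 ± 0.86, adjusted p = 0.0528, missed the threshold.

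Of the 2 kinases, 1 was called in 1 comparison. Eif2ak1 (HRI) had 68.1 and 69.2 CPM in Kira8, 70.6 and 69.7 CPM in Stattic and 53.5, 56.9 and 62.8 CPM in Kira8+Stattic libraries, against 84.4, 83.4 and 74.5 CPM in None libraries. All Kira8+Stattic libraries were the lowest, and Eif2ak1 fell with both inhibitors (-0.48 ± 0.12, adjusted p = 0.00801). Eif2ak4 (GCN2) had 31.7 and 31.9 CPM in Kira8, 23.5 and 30.7 CPM in Stattic and 32.2, 30.8 and 30.3 CPM in Kira8+Stattic libraries, against 27.0, 37.2 and 38.1 CPM in None libraries. Each treated group overlapped None or lay within its range, except that Stattic replicate 1 was the lowest library, and none of the changes was called, from -0.33 ± 0.19 with Stattic to -0.10 ± 0.18 with Kira8. Eif2ak1 shares 487 exonic bases with Aimp2 on the other strand.

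The amino acid synthesis genes divided by enzyme. Asns, the asparagine synthetase and a standard readout of ATF4, had 41.2 and 63.5 CPM in Kira8, 68.3 and 67.6 CPM in Stattic and 51.7, 63.4 and 77.9 CPM in Kira8+Stattic libraries, against 58.1, 73.7 and 48.9 CPM in None libraries. All 4 groups spanned similar values, and the log2 changes were -0.20 ± 0.23, adjusted p = 0.613, with Kira8, 0.17 ± 0.23, adjusted p = 0.584, with Stattic, and 0.10 ± 0.21, adjusted p = 0.75, with both.

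The serine pathway enzymes Phgdh, Psat1 and Psph did not move together. Psat1 had 90.9 and 107 CPM in Kira8, 132 and 129.6 CPM in Stattic and 135, 129 and 163 CPM in Kira8+Stattic libraries, against 183, 208 and 166 CPM in None libraries. All treated libraries lay below all None libraries, with Kira8 lowest. Psat1 fell with Kira8 (-0.91 ± 0.17, adjusted p = 0.00297; 0.0625 without Kira8 replicate 1) and with Stattic (-0.51 ± 0.17, adjusted p = 0.0293; 0.0765, 0.101 and 0.134 without None replicate 2, Stattic replicate 1 and Stattic replicate 3), and was not called with both (-0.38 ± 0.15, adjusted p = 0.0551). Phgdh, the first enzyme of the pathway, had 104 to 122 CPM in Kira8, 130.5 to 160.3 CPM in Stattic and 149 to 162 CPM in Kira8+Stattic libraries, against 163 to 172 CPM in None libraries. It fell with Kira8 (-0.57 ± 0.15, adjusted p = 0.0207), a call that was lost without Kira8 replicate 1 (0.242) or Kira8 replicate 3 (0.0818). Psph, the last enzyme, had 24.3 and 27.4 CPM in Kira8, 44.7 and 41.7 CPM in Stattic and 45.2, 43.5 and 45.8 CPM in Kira8+Stattic libraries, against 31.5, 28.0 and 27.1 CPM in None libraries. Stattic and Kira8+Stattic libraries were above every Kira8 and None library, and Psph rose by 0.58 ± 0.14 with Stattic and 0.63 ± 0.13 with both. Psph shares 452 exonic bases with Cct6a on the other strand.

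Bcat1, the cytosolic branched-chain aminotransferase, fell in all 3 comparisons, and Gpt2, the mitochondrial alanine aminotransferase, rose in all 3. Bcat1 had 37.5 and 44.6 CPM in Kira8, 41.5 and 46.4 CPM in Stattic and 48.8, 47.2 and 55.5 CPM in Kira8+Stattic libraries, against 87.2, 135 and 81.2 CPM in None libraries. The 7 treated libraries were all below the lowest None library and close to one another. Its log2 changes were -1.30 ± 0.22, adjusted p = 0.00176, with Kira8, -1.20 ± 0.22, adjusted p = 0.00108, with Stattic, and -1.0 ± 0.19, adjusted p = 0.00123, with both. Bcat1 shares 337 exonic bases with the antisense gene model Gm26666. Gpt2 had 12.2 and 21.2 CPM in Kira8, 17.8 and 22.7 CPM in Stattic and 16.9, 27.6 and 29.0 CPM in Kira8+Stattic libraries, against 6.58, 8.32 and 5.46 CPM in None libraries. None lay below every treated library, and Gpt2 rose by 1.30 ± 0.29, 1.58 ± 0.29 and 1.85 ± 0.27, the first lost without Kira8 replicate 3 (adjusted p = 0.153).

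Cth, the cystathionine gamma-lyase of cysteine synthesis, had 3.17 to 3.36 CPM in Kira8, 9.85 to 12.6 CPM in Stattic and 9.35 to 13.9 CPM in Kira8+Stattic libraries, against 5.17 to 9.07 CPM in None libraries. It fell with Kira8 (-1.16 ± 0.28, adjusted p = 0.0126; 0.105 and 0.0918 without Kira8 replicates 1 and 3) and rose with both inhibitors (0.66 ± 0.24, adjusted p = 0.0457), a call that 8 of the 10 omissions of a single library removed, with adjusted p from 0.0504 to 0.172. Got1, the cytosolic aspartate aminotransferase, had 84.2 to 89.4 CPM in Kira8, 106 to 107 CPM in Stattic and 105 to 113 CPM in Kira8+Stattic libraries, against 67.0 to 95.5 CPM in None libraries. It rose with Stattic (0.45 ± 0.16, adjusted p = 0.0465), a call that 9 of the 10 omissions removed (0.0616 to 0.164), and with both (0.49 ± 0.15, adjusted p = 0.0183), lost without None replicate 3 (0.0728) and Kira8+Stattic replicates 2 (0.0541) and 3 (0.0572). Aldh18a1 and Pycr1, of proline synthesis, and Cbs, of cysteine synthesis, were called in no comparison against None. Cbs was at 0 in Kira8 replicate 3 and Kira8+Stattic replicate 2 and reached 1.44 CPM at most.

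Xpot, the exportin that carries tRNA out of the nucleus, had 124 and 169.6 CPM in Kira8, 90.7 and 112 CPM in Stattic and 86.0, 99.7 and 109 CPM in Kira8+Stattic libraries, against 140.1, 244 and 198 CPM in None libraries. Stattic and Kira8+Stattic libraries lay below None, and Kira8 overlapped None. It fell with Stattic (-0.94 ± 0.24, adjusted p = 0.00791; 0.0752 without Stattic replicate 1) and with both (-0.98 ± 0.21, adjusted p = 0.00245).

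The contrast between the classes was also present in single libraries. In each library the median log2 deviation from the None mean was taken over the 14 factor and feedback genes and over the 11 amino acid synthesis genes. The first minus the second was 1.27 and 1.42 in Kira8, 1.15 and 1.87 in Stattic, and 1.50, 2.46 and 2.15 in Kira8+Stattic libraries, against 0.07, -0.03 and 0.01 in None libraries. The 7 treated libraries all lay above the 3 None libraries. Since the None libraries are their own reference here, their values are drawn toward 0, and this separation is partly set in advance. No test was made of these medians, since the genes were chosen with results of these data known.

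**Figure D3:**
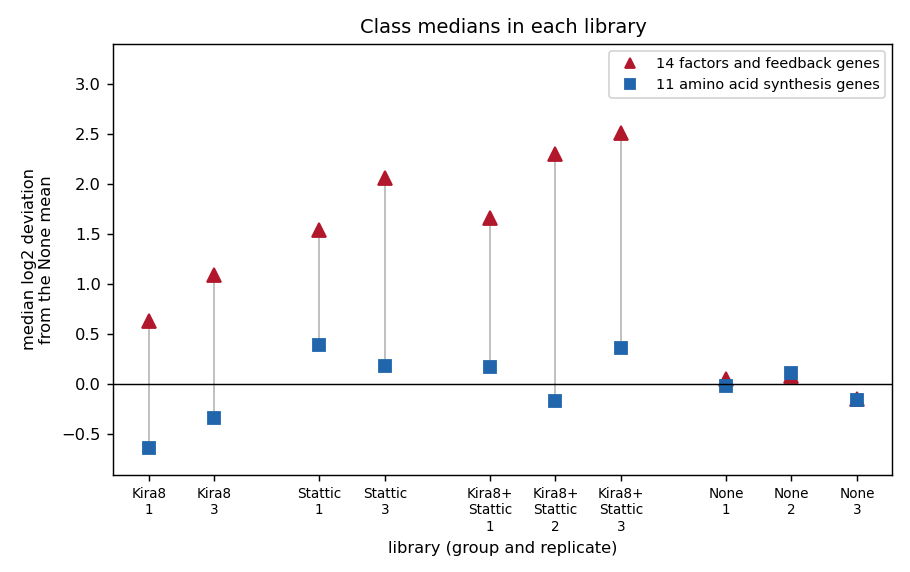
Median log2 deviation from the None mean (y axis) of the 14 factor and feedback genes (triangles) and the 11 amino acid synthesis genes (squares) in each of 10 libraries (x axis). A line joins both classes of a library, and its length is 1.15 to 2.46 in treated libraries, against at most 0.07 in None libraries. The None libraries are their own reference, which draws their values toward 0.

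The inhibitors were next compared with each other. Kira8+Stattic against Kira8, which asks what Stattic added to Kira8, gave 16 genes higher and 2 lower, where 14.7% of all genes were called higher and 16.0% lower. All 6 feedback genes were among the 16, led by Ppp1r15a (2.32 ± 0.22) and Sesn2 (1.98 ± 0.24). Of the factors, Atf3 (3.22 ± 0.41), Cebpb (2.52 ± 0.31), Ddit3 (1.11 ± 0.19) and Cebpg (0.63 ± 0.21) were higher, and Atf5 was lower (-0.76 ± 0.21). Vldlr (2.09 ± 0.32), Stc2 (1.44 ± 0.31) and 4 amino acid synthesis genes, Cth (1.82 ± 0.29), Psph (0.79 ± 0.15), Psat1 (0.53 ± 0.17) and Phgdh (0.45 ± 0.15), completed the 16, and Tnfrsf10b was the other gene lower (-2.23 ± 0.23). Of these 18 calls, 10 held in every omission of a single library. Without Kira8 replicate 1 the 16 became 9: Cebpg (adjusted p = 0.281), Trib3 (0.345), Eif4ebp1 (0.379), Ddit4 (0.0999), Stc2 (0.0624), Psat1 (0.269) and Phgdh (0.326) missed the threshold. Without Kira8 replicate 3, Atf5 (0.281), Cebpg (0.0848), Trib3 (0.0531), Psat1 (0.0898) and Phgdh (0.102) missed it. The other omissions removed calls of Atf5, Cebpg, Trib3, Eif4ebp1, Psat1 or Phgdh alone.

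Stattic against Kira8 gave 13 genes higher and 3 lower, where 13.7% of all genes were called higher and 15.1% lower. The 13 were Atf3 (3.19 ± 0.42), Sesn2 (2.25 ± 0.26), Ppp1r15a (2.18 ± 0.23), Vldlr (2.13 ± 0.34), Cebpb (2.07 ± 0.32), Cth (1.78 ± 0.31), Ppp1r15b, Stc2, Ddit3, Ddit4, Pycr1, Eif4ebp1 and Psph. Atf5, Nupr1 and Tnfrsf10b were lower, Tnfrsf10b by -2.24 ± 0.26. Of these 16 calls, 8 held in every omission. Without Kira8 replicate 1 the 13 became 7: Ddit3 (adjusted p = 0.0762), Eif4ebp1 (0.309), Ddit4 (0.121), Stc2 (0.187), Psph (0.0726) and Pycr1 (0.210) missed the threshold. Without Stattic replicate 1, Atf5 (0.0604), Nupr1 (0.0801), Eif4ebp1 (0.162), Stc2 (0.111) and Pycr1 (0.0986) missed it. The other omissions removed calls of Atf5, Nupr1, Eif4ebp1 or Pycr1 alone. Atf4 gave 0.04 ± 0.19, adjusted p = 0.90, Chac1 gave -0.03 ± 0.27, adjusted p = 0.957, and Jdp2 gave -0.59 ± 0.39, adjusted p = 0.291, which does not show that the inhibitors act alike on them.

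Kira8+Stattic against Stattic, which asks what Kira8 added to Stattic, gave 0 of 33 genes called by edgeR in either direction and 0 with an unadjusted p under 0.05. DESeq2 and limma voom also called 0 of 33, with 1 and 0 at an unadjusted p under 0.05. Few genes were called at all, with 0.00942% of all genes higher and 0.00471% lower, and 874 of 21239 had an unadjusted p under 0.05. The log2 changes of the 33 ran from -0.77 ± 1.36 for Cbs to 0.86 ± 0.89 for Gdf15, both near the limit of detection. Ddit3 gave 0.19 ± 0.18, Chac1 0.38 ± 0.25, Trib3 0.11 ± 0.26 and Atf4 0.20 ± 0.17.

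The Kira8 change in the presence of Stattic was then set against that in its absence. This difference, the interaction, was called higher for 2 of the 33 genes and lower for 5, where 4.55% of all genes were called higher and 3.97% lower. The 5 were Chac1 (-2.15 ± 0.35, adjusted p = 0.00513), Trib3 (-1.96 ± 0.36, adjusted p = 0.00858), Ddit3 (-1.70 ± 0.25, adjusted p = 0.00318), Ppp1r15a (-1.57 ± 0.28, adjusted p = 0.00742) and Ddit4 (-1.54 ± 0.27, adjusted p = 0.00732). Each had a positive Kira8 change without Stattic and a smaller change with it that was not called. The 2 were Bcat1 (1.50 ± 0.31, adjusted p = 0.0124) and Psat1 (1.03 ± 0.24, adjusted p = 0.0206), which had fallen with Kira8 without Stattic. Without Kira8 replicate 3, Trib3 (adjusted p = 0.0526) and Ddit4 (0.0511) missed the threshold, without Kira8 replicate 1 Bcat1 (0.0740) missed it, and Psat1 missed it without either Kira8 library or either Stattic library (0.0510 to 0.123). Ddit3, Ppp1r15a and Chac1 stayed past it in all 10 omissions. Atf4 gave -0.58 ± 0.24, adjusted p = 0.164, and Jdp2 gave -1.77 ± 0.51, adjusted p = 0.0508.

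**Figure D4:**
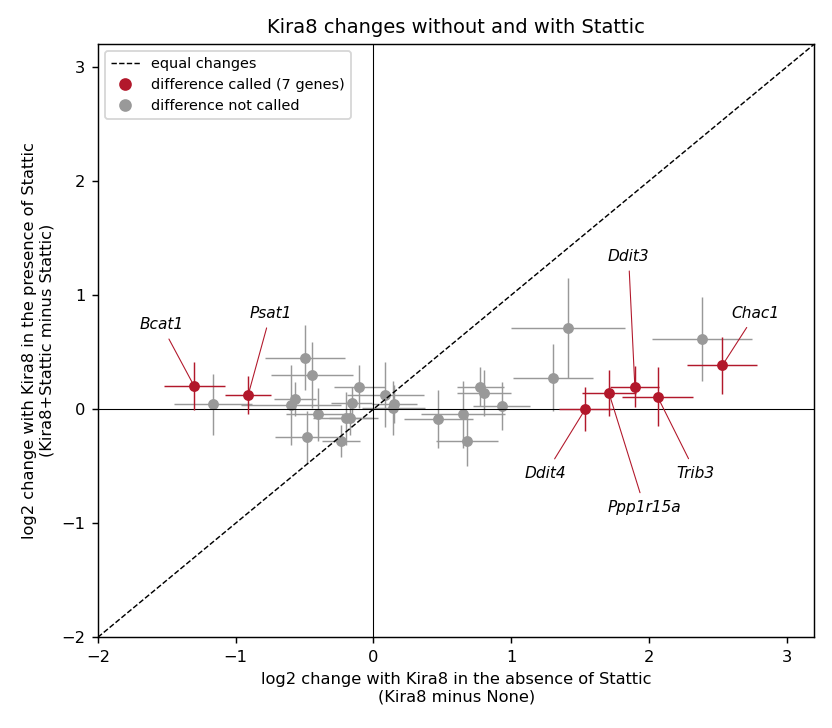
Log2 change of 31 genes with Kira8 in the presence of Stattic (y axis, Kira8+Stattic minus Stattic) against that in its absence (x axis, Kira8 minus None), with standard errors. Gdf15 and Cbs, with standard errors above 0.8, are not drawn. The 7 genes whose changes differ at an adjusted p under 0.05 (red) lie between -1.30 and 2.53 on the x axis, off the dashed line of equal changes. Their changes on the y axis were not called.

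Levels were compared between genes per kilobase of exon. Atf4 was first of the 33 in all 4 groups, at 152 ± 25.2 CPM per kilobase in Kira8 (SD, n = 2), 156 ± 4.82 in Stattic (n = 2) and 179 ± 21.5 in Kira8+Stattic (n = 3), against 88.6 ± 10.0 in None (n = 3). In Stattic it was followed by Ddit4 (144 ± 4.94 CPM per kilobase), Ppp1r15a (141 ± 14.3) and Ppp1r15b (118 ± 46.0), neighbours that lay within their spread, as did the same 3 in Kira8+Stattic. In None the places after Atf4 were held by the serine enzymes Phgdh (67.3 ± 1.82 CPM per kilobase) and Psat1 (43.7 ± 4.96), the second within its spread of Ppp1r15b (37.9 ± 8.85). Ppp1r15a ranked 7 in Kira8, 3 in Stattic and 2 in Kira8+Stattic, against 14 in None, whereas Asns ranked 11, 13 and 15, against 9 in None. Cbs and Gdf15 held the last 2 places in Stattic, Kira8+Stattic and None.

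Other genes of the pathway were described by lists that hold none of the 33. Their counts are read against all genes tested, of which 9.70% were called higher and 9.59% lower with Kira8, 20.1% and 18.9% with Stattic, and 20.8% and 20.0% with both, with medians of 0.00, 0.08 and 0.09. A list of 20 further targets of ATF4 and CHOP, 19 of them tested, had 12 higher and 0 lower with Kira8, 14 and 0 with Stattic, and 14 and 1 with both, with medians of 0.83, 1.68 and 1.63. Klhl24 (3.11 ± 0.28), Pck2 (1.65 ± 0.17), the autophagy receptor Sqstm1 (1.85 ± 0.21) and Ndrg1 (2.85 ± 0.34) had the smallest p with Kira8. With Stattic they were the growth arrest gene Gadd45a (4.49 ± 0.28), the angiogenic factor Vegfa (3.04 ± 0.24), the autophagy gene Map1lc3b (2.41 ± 0.20) and the heme oxygenase Hmox1 (4.32 ± 0.39), and Gadd45a (4.48 ± 0.27), Vegfa (3.30 ± 0.23), Map1lc3b (2.69 ± 0.19) and Klhl24 (3.04 ± 0.26) with both.

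Among the subunits of eIF2 and eIF2B and the other kinases, PERK (Eif2ak3) rose in all 3 comparisons (2.20 ± 0.20 with Kira8, 2.67 ± 0.20 with Stattic and 2.74 ± 0.19 with both). The list as a whole had 1 of 11 higher and 4 lower with Kira8, 3 and 7 with Stattic, and 2 and 7 with both, and Eif2b3, a subunit of the exchange factor eIF2B, fell in each (-1.75 ± 0.24, -1.39 ± 0.24 and -1.58 ± 0.21). Of 10 amino acid transporters 4 were higher and 1 lower with Kira8, and 3 higher and 3 lower with Stattic and with both, where the shares with Stattic and with both are near those of all genes. Slc38a2, a transporter of neutral amino acids, rose in each (1.27 ± 0.20, 2.31 ± 0.20 and 2.60 ± 0.19), and the glutamine transporter Slc1a5 fell in each (-0.82 ± 0.16, -0.92 ± 0.16 and -0.83 ± 0.14).

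Of 13 cytosolic aminoacyl-tRNA synthetases, 2 were higher and 0 lower with Kira8, 3 and 3 with Stattic, and 3 and 5 with both, and with Stattic these shares are near those of all genes. Cars, for cysteine, was higher in each (1.21 ± 0.25, 1.78 ± 0.25 and 1.77 ± 0.23) and Wars, for tryptophan, was lower with Stattic (-1.77 ± 0.19) and with both (-1.85 ± 0.17). Of 5 mitochondrial one-carbon enzymes 0 were higher and 1 was lower in each comparison, a share lower that with Stattic and with both is near that of all genes. It was Mthfd1l with Kira8 (-0.64 ± 0.18) and Shmt2 with Stattic (-0.77 ± 0.18) and with both (-0.81 ± 0.16). Chaperones of the endoplasmic reticulum answer to ATF6 and XBP1 more than to ATF4. A list of 12 genes, such chaperones together with Xbp1 itself, was mostly called lower. Of the 12, 0 were higher and 11 lower with Kira8, and 1 higher and 7 lower with Stattic and with both. Sdf2l1 (-1.91 ± 0.17) and Pdia4 (-1.76 ± 0.19) had the smallest p with Kira8, and the gene called higher with Stattic and with both was the cochaperone Dnajb9 (2.71 ± 0.22 and 2.90 ± 0.21).

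With Kira8 replicate 2 and Stattic replicate 2 included, the fit of all 12 libraries called 0 of the 33 genes in each of the 7 comparisons. The common dispersion of that fit was 1.01, against 0.143 with 10 libraries. At an unadjusted p under 0.05, 4 of the 33 passed in Kira8 against None, 9 in Stattic against None and 8 in Kira8+Stattic against None, and the lowest adjusted p of the 33 were 0.373, 0.0875 and 0.0632. In limma voom with library quality weights on the same 12 libraries, 16, 19 and 23 of the 33 were called in these comparisons, against 15, 21 and 23 by edgeR with 10 libraries.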

How the data were processed

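RNA of 12 libraries, 3 per group, had been extracted with Trizol and required an RNA integrity number over 7.0, per the labels' protocols. The authors deposited 1 table of raw counts per gene and library, aligned to build mm10 per the submitters' processing notes. Aligner, counter, annotation and strand setting: not given in the sources used here. The deposited counts were tested without rescaling: edgeR 4.0.16 (R 4.3.3) with TMM factors, the filterByExpr filter, 1 coefficient per group and the quasi-likelihood test, with Benjamini-Hochberg adjustment over all genes tested and a threshold of 0.05. Each standard error was taken as the log2 change over the root of its F statistic.

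Kira8 replicate 2 and Stattic replicate 2 were left out of the main values, which rest on 10 libraries of 51669791 to 85890966 counts, where 3 counts are 0.0349 to 0.0581 CPM. This floor covers counting error only. No 2 libraries of the same group agreed within sampling noise. The table held 55401 genes, 260 of them with no symbol. The 7 comparisons were each treatment against None, the treatments against each other, and the interaction. Several share None or Kira8 libraries and are not independent of each other.

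The members and gene lists were chosen with earlier results of these data known, so no test was made over a list. Values in every library are given for the 3 genes of each class with the smallest adjusted p in a comparison against None, and always for Atf4, Ddit3 and Asns. Up to 4 genes per further list, those with the smallest adjusted p, are named, some with their values in the other comparisons. Slc3a2 stands in 2 of these lists. Exon lengths, overlaps and promoters came from the reference annotation and RefSeq tables. Alternatives were all 12 or 11 libraries, limma 3.58.1 voom, DESeq2 1.42.0, other scalings and filters, a replicate block, and leaving out each library in turn.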

Additional observations from a re-analysis of the deposited data

Results flagged for a closer look

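The Kira8 change differed with and without Stattic, by the interaction test, for 7 genes. It was lower with Stattic than without by a log2 difference of -2.15 for Chac1, -1.96 for Trib3, -1.70 for Ddit3, -1.57 for Ppp1r15a and -1.54 for Ddit4. It was higher with Stattic by 1.50 for Bcat1 and 1.03 for Psat1. Of the 33 genes, 6.1% were thus called higher and 15.2% lower, against 4.55% and 3.97% of all genes in the same test. The share higher is near that of all genes. Trib3, Ddit4, Bcat1 and Psat1 each missed the threshold in some omission of a single library.

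Stattic replicate 2, which the comparisons leave out, held 5 genes above the highest None library, in CPM of the total counts. Ddit3 had 51.7 CPM in Stattic replicate 2, against 13.3 to 15.3 CPM in None libraries. Eif4ebp1 had 70.8 CPM, against 14.8 to 25.9 CPM in None libraries. Cebpb had 12.3 CPM, against 8.03 to 11.4 CPM in None libraries, Pycr1 had 8.30 CPM, against 6.67 to 7.74 CPM in None libraries, and Cbs had 4.64 CPM, against 0.206 to 1.59 CPM in None libraries. In the same library 25 of the 33 genes lay below the lowest None library. The part of its repeat-derived counts (19.104% in Gm10800) in these values was not tested.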

How the results depend on the processing

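The calls depended on the 2 libraries that stood apart. With all 12 libraries, 0 of the 33 genes were called higher or lower in any comparison. With 11 libraries including Kira8 replicate 2, the counts higher and lower were 0 and 0 in Kira8 against None, 5 and 1 in Stattic against None, 8 and 1 in Kira8+Stattic against None, 2 and 1 in Kira8+Stattic against Kira8, 1 and 0 in Stattic against Kira8, and 0 and 0 in the interaction. With 11 including Stattic replicate 2 they were 0 and 0, 4 and 1, 4 and 0, 0 and 0, 0 and 0, and 0 and 0 in the same order. Got1 in Stattic against None turned to -0.13 with 12 libraries and -0.11 with 11 including Stattic replicate 2. The class difference in Kira8 was 1.07 with 12 libraries. The cause was not tested.

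On the 10 libraries, DESeq2 called 4 higher and 8 lower in the interaction, and library size alone called 4 lower in Kira8+Stattic against Kira8, where quality-weighted voom on 12 libraries called 5 lower. Library size alone moved the median of all genes in Stattic against None to -0.08, against 0.08 with TMM, and the share of calls that were higher to 42.5%, against 51.6%. Under it 11 calls of the 33 genes missed the threshold: Psph and Got1 with Stattic, Got1 and Cth with both inhibitors, Cebpg, Trib3, Eif4ebp1, Psat1 and Phgdh in Kira8+Stattic against Kira8, and Eif4ebp1 and Pycr1 in Stattic against Kira8. It added 6: Sesn2 with Kira8, Aldh18a1 with Stattic, Psat1 and Aldh18a1 with both, and Nupr1 and Xpot in Kira8+Stattic against Kira8. No direction of the 33 genes' called changes turned under DESeq2, voom, the other scalings or the filters. Leaving out 1 library gave these ranges of counts: Kira8 against None 6 to 12 higher and 1 to 4 lower, Stattic against None 16 to 17 and 2 to 5, Kira8+Stattic against None 17 to 19 and 4 to 5, Kira8+Stattic against Kira8 9 to 16 and 1 to 4, Kira8+Stattic against Stattic 0 to 0 and 0 to 0, Stattic against Kira8 7 to 13 and 1 to 3, and the interaction 0 to 3 and 3 to 7. The lowest Kira8 counts were without Kira8 replicate 3 (6 higher) and replicate 1 (1 lower), and the lowest Stattic count without Stattic replicate 1 (2 lower). The class difference ranged over 1.27 to 1.42 in Kira8, 1.15 to 1.87 in Stattic and 1.82 to 2.31 in Kira8+Stattic. A group left with 1 library was assumed to vary like the others.

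Whether replicate numbers pair the samples was not settled. The same-number correlations between Kira8+Stattic and None were weak but positive, at 0.22, 0.11 and 0.06. Those of different numbers ran from -0.15 to 0.07, and taking deviations from each group's mean pulls them down. Same-number correlations in the other group pairs were positive but small, at 0.017 to 0.094. Kira8 and Stattic have 2 libraries each, whose deviations from the group mean mirror each other. Correlations that involve these groups are thus not separate results. With the number as a replicate block the counts were 11 and 5 in Kira8 against None, 18 and 4 in Stattic against None, 18 and 5 in Kira8+Stattic against None, 14 and 3 in Kira8+Stattic against Kira8, 0 and 0 in Kira8+Stattic against Stattic, 14 and 4 in Stattic against Kira8, and 2 and 6 in the interaction. Depth limits Cbs and Gdf15, which lay at 1.44 CPM or lower. Nupr1 was also low, at 4.39 CPM or lower, but had 46 to 263 counts in the 10 libraries.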
